A study of Schizosaccharomyces pombe with 12 samples.

Results

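The 9 genes described here make or recover pyrimidine nucleotides in fission yeast, Schizosaccharomyces pombe, or are named for their regulation by uracil. They were taken by their standard names, ura1, ura2, ura3, ura4 (SPCC330.05c), ura5, urg1, urg2, urg3 and urh1, and all 9 were among the 5483 features with a value on every array. Total RNA was extracted with hot phenol from growing cultures collected at 1 set density and was measured on 12 Affymetrix tiling arrays, 3 biological replicates for each of 4 strains. The strains were wild type (SPB80), dcr1Δ (SPB81), which lacks the Dicer gene dcr1, and 2 strains with other dcr1 alleles, dcr1ΔC33 (SPB287) and dcr1-SHSS (SPB776). The labels give only these allele and strain names. No age, drug or treatment is given for any strain. The sources used here do not give the remaining genotype of the strains, the growth medium or its uracil content. They also leave unstated which ura4 allele each strain has, whether a ura4 reporter was inserted elsewhere, and whether other nutritional mutations are present. The study's title concerns an RNA-binding domain of Dicer, the ribonuclease that cuts double-stranded RNA for RNA interference, and its retention in the nucleus.

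Cells build uridine monophosphate, the parent of the other pyrimidine nucleotides, in a chain of reactions from simple precursors. They can also recover it by salvage of uracil and uridine. In fission yeast ura1 encodes the multifunctional enzyme with carbamoyl-phosphate synthase and aspartate transcarbamylase activity that opens the chain, ura2 the dihydroorotase, ura3 the mitochondrial dihydroorotate dehydrogenase, ura5 the orotate phosphoribosyltransferase and ura4 the orotidine monophosphate decarboxylase that completes it. The ura4 gene is also the standard selectable marker of this yeast, used as a reporter of silencing when it is placed in heterochromatin. The urg genes were named as uracil-regulated genes, and the urg1 promoter is used to switch on other genes with uracil. Of these, urg2 encodes a uracil phosphoribosyltransferase, a salvage enzyme, and urg1 encodes a protein related to a GTP cyclohydrolase. The product of urh1 is a uridine ribohydrolase, which releases uracil from uridine.

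Each array value is a log2 level as the authors deposited it, so a step of 1 is a doubling on that scale. Array medians lay between 11.37 and 11.42, and the median SD within a strain over all features was 0.0748 when pooled over the strains. The deleted gene checked the labels of the dcr1Δ arrays: dcr1 lay at 10.49, 10.57 and 10.60 in wild type and at 5.52, 5.80 and 5.37 in dcr1Δ. It was present in the other mutants, at 10.86, 10.89 and 10.85 in dcr1ΔC33 and at 10.67, 10.70 and 10.64 in dcr1-SHSS. Presence of dcr1 RNA therefore could not check the labels of wild type, dcr1ΔC33 and dcr1-SHSS against each other. Changes were tested with limma on all features and all 12 arrays, with Benjamini-Hochberg adjustment over all features, and were called at an adjusted p under 0.05. All adjusted p-values given here are from that limma fit, and errors are its SE with n = 3 arrays per strain. The 3 mutants were compared with the same wild-type arrays, so their changes share these controls. In total RNA of a whole culture, a change in the share of cells that express a gene and a change in RNA per cell cannot be told apart. The target was double-stranded, so RNA of both strands was read together.

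Against wild type, 4 of the genes rose in at least 1 mutant, ura4, urh1, urg1 and urg2, and 3 fell in at least 1, ura1, ura2 and ura5. Neither ura3 nor urg3 passed the threshold in any of the 6 comparisons. In dcr1Δ 2 genes rose and 0 fell, against a background of 3.14% of all features called, 2.81% higher and 0.328% lower. At an unadjusted p under 0.05, 1 gene was lower there, ura1. In dcr1ΔC33 4 rose and 2 fell, where 32.3% of all features were called, 14.7% higher and 17.6% lower. In dcr1-SHSS 4 rose and 3 fell, where 40.7% of all features were called, 15% higher and 25.8% lower. The median change of the 9 genes was 0.05, -0.02 and 0.12 in dcr1Δ, dcr1ΔC33 and dcr1-SHSS, beside medians of 0.00, -0.03 and -0.06 over all features. These shares depend on single arrays: with 1 array left out, from 1.5% (without dcr1Δ array 2) to 3.06% of all features were called in dcr1Δ, and from 21.5% (without dcr1ΔC33 array 3) to 32.4% in dcr1ΔC33.

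**Figure D1:**
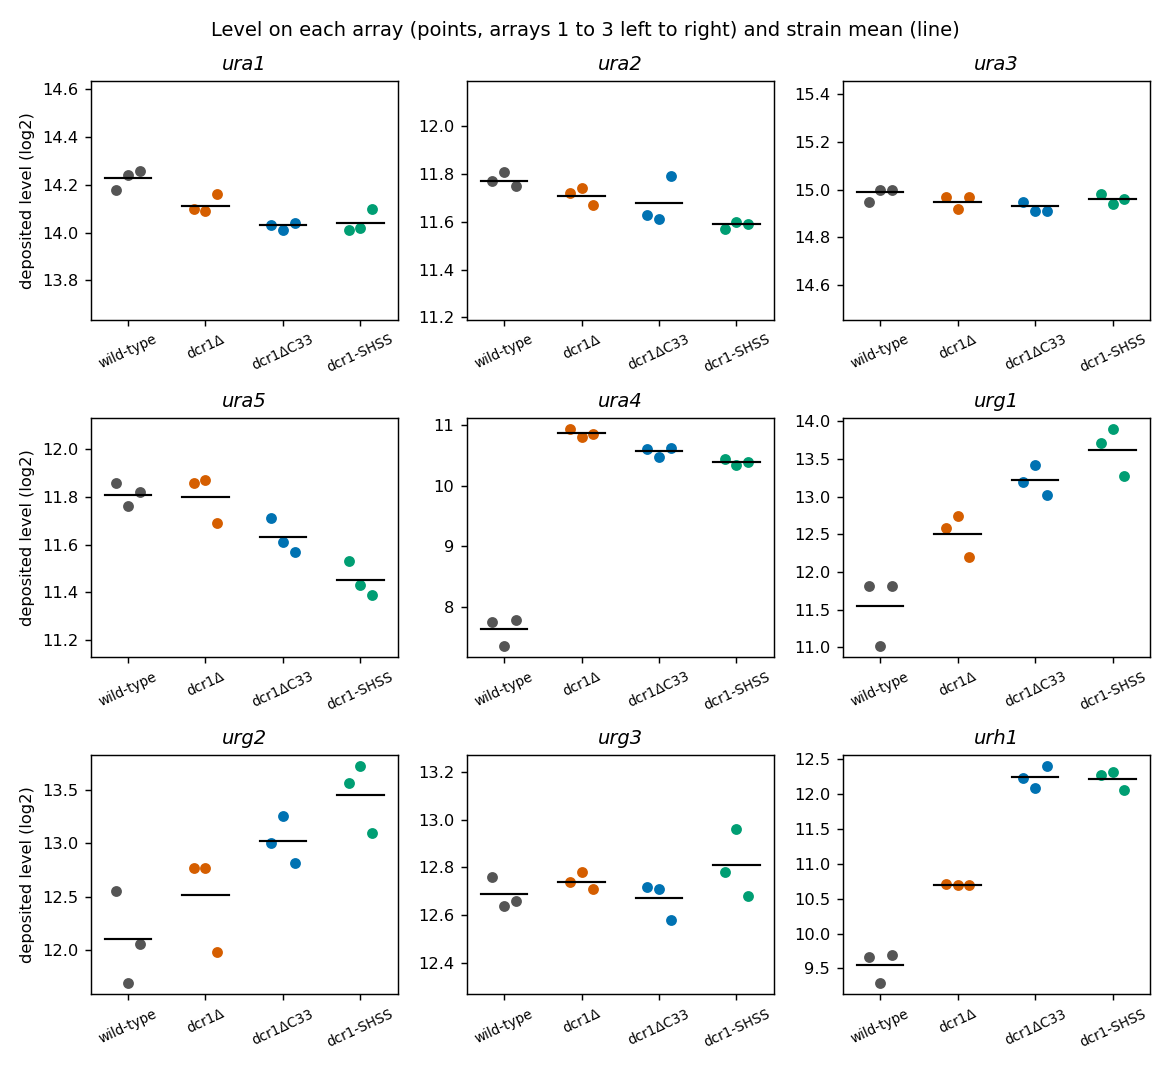
Deposited log2 level (vertical axis) of each of the 9 genes on each array, with 1 panel per gene, points for arrays 1 to 3 of the 4 strains and a line for the strain mean. The vertical ranges differ between panels. All 9 mutant points of ura4 and of urh1 lie above the 3 wild-type points, with ura4 highest in dcr1Δ and urh1 lowest of the mutants there.

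The last gene of the chain, ura4, gave the largest differences of the 9. It lay at log2 levels of 7.76, 7.36 and 7.79 in wild type, at 10.93, 10.80 and 10.85 in dcr1Δ, at 10.60, 10.47 and 10.62 in dcr1ΔC33, and at 10.44, 10.34 and 10.39 in dcr1-SHSS. Every mutant array stood far above every wild-type array, and within the mutants the arrays of each strain lay close together. The rise was 9.34-fold in dcr1Δ (log2 change 3.22 ± 0.10, 95% interval 3.00 to 3.45, adjusted p = 2.25e-08). It was 7.60-fold in dcr1ΔC33 (2.93 ± 0.10, adjusted p = 6.47e-08) and 6.72-fold in dcr1-SHSS (2.75 ± 0.10, adjusted p = 6.86e-08). With any 1 array left out these changes stayed between 2.61 and 3.30. On the wild-type arrays only 8.06 to 9.08% of features had a lower value than ura4, so its wild-type signal was dim, and no detection call was used here. The annotation used for names holds no gene that overlaps ura4. Strain construction and dcr1 genotype cannot be told apart for this gene, because the sources used here do not give the ura4 allele or copy number of each strain.

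Among the mutants the order of ura4 was dcr1Δ, dcr1ΔC33, dcr1-SHSS, with no overlap between the arrays of these strains. The level in dcr1-SHSS was 0.47 ± 0.10 lower than in dcr1Δ (adjusted p = 0.00883). In dcr1ΔC33 it was 0.30 ± 0.10 lower than in dcr1Δ, which missed the threshold (adjusted p = 0.0926). That difference was called when the replicate number was fitted as a block (adjusted p = 0.0291) and without wild-type array 2 (adjusted p = 0.0111). Between dcr1-SHSS and dcr1ΔC33 the difference was -0.18 (95% interval -0.40 to 0.05, adjusted p = 0.429). The difference of dcr1ΔC33 from dcr1Δ was also called with quantile normalization (adjusted p = 0.0346) and when the arrays of dcr1ΔC33 and dcr1Δ were fitted by themselves (0.0413). The separation of dcr1ΔC33 from dcr1Δ thus depended on the fit, that of dcr1-SHSS from dcr1ΔC33 was not called, and that of dcr1-SHSS from dcr1Δ was.

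The other 4 genes of the chain moved little, and where they passed the threshold they were lower in the mutants. The entry enzyme gene ura1 lay at 14.18, 14.24 and 14.26 in wild type, at 14.10, 14.09 and 14.16 in dcr1Δ, at 14.03, 14.01 and 14.04 in dcr1ΔC33, and at 14.01, 14.02 and 14.10 in dcr1-SHSS. All 9 mutant arrays lay below all 3 wild-type arrays. It fell by 0.20 ± 0.04 in dcr1ΔC33 (1.15-fold lower, adjusted p = 0.00343) and by 0.18 ± 0.04 in dcr1-SHSS (1.13-fold lower, adjusted p = 0.0042). In dcr1Δ the change was -0.11 ± 0.04 (adjusted p = 0.163). Both calls held with each array left out in turn.

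The orotate phosphoribosyltransferase gene ura5 lay at 11.86, 11.76 and 11.82 in wild type, at 11.86, 11.87 and 11.69 in dcr1Δ, at 11.71, 11.61 and 11.57 in dcr1ΔC33, and at 11.53, 11.43 and 11.39 in dcr1-SHSS. The wild-type and dcr1Δ arrays overlapped, the dcr1ΔC33 arrays were lower than wild type, and the dcr1-SHSS arrays were lower than all others. In dcr1-SHSS ura5 fell by 0.36 ± 0.06 against wild type (1.29-fold lower, adjusted p = 0.00126), and it was 1.28-fold lower than in dcr1Δ (-0.35 ± 0.06, adjusted p = 0.00347). In dcr1ΔC33 it fell by 0.18 ± 0.06 against wild type (adjusted p = 0.0403). Leaving out dcr1-SHSS array 2, dcr1ΔC33 array 2 or 3, or wild-type array 1 or 3 ended that call (adjusted p up to 0.132). The difference of dcr1ΔC33 from dcr1Δ was -0.17 ± 0.06 (adjusted p = 0.103) and was called with the replicate block (adjusted p = 0.0328) and without dcr1Δ array 3 (adjusted p = 0.0396). In dcr1Δ ura5 differed from wild type by -0.01 (95% interval -0.14 to 0.12). The genes on both sides of ura5 also fell. On one side arg6, which encodes an enzyme of arginine synthesis, changed by -0.11, -0.18 and -0.25 in dcr1Δ, dcr1ΔC33 and dcr1-SHSS. It passed the threshold in dcr1ΔC33 and dcr1-SHSS (adjusted p = 0.0158 and 0.0027). Its call in dcr1ΔC33 was lost without array 1 of that strain or wild-type array 2 (adjusted p up to 0.0541). On the other side res1 changed by -0.08, -0.20 and -0.32 in the same order (SE 0.06). It passed in dcr1ΔC33 and dcr1-SHSS (adjusted p = 0.0284 and 0.00235). The first of these calls was lost without dcr1ΔC33 array 1 or 3 or wild-type array 1 or 2 (adjusted p up to 0.104). Over all features, 17.6% were called lower in dcr1ΔC33 and 25.8% in dcr1-SHSS. Calls beside a gene of the chain were not particular to ura5. On the 2 sides of ura1, kri1 changed by -0.22 and ime4 by 0.30 in dcr1-SHSS (adjusted p = 0.0293 and 0.0044). The call of kri1 was lost without any 1 array of dcr1-SHSS or wild-type array 1 or 3 (adjusted p up to 0.089).

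The dihydroorotase gene ura2 lay at 11.77, 11.81 and 11.75 in wild type and at 11.57, 11.60 and 11.59 in dcr1-SHSS, with no overlap. It fell by 0.19 ± 0.05 in dcr1-SHSS (1.14-fold lower, adjusted p = 0.00977). The dcr1Δ arrays lay between, at 11.72, 11.74 and 11.67, a change of -0.07 ± 0.05 (adjusted p = 0.5). In dcr1ΔC33 the arrays read 11.63, 11.61 and 11.79, and array 3 lay within the wild-type range. The change there was -0.10 ± 0.05 (adjusted p = 0.134) and was called without that array (adjusted p = 0.0216). Without the same array, the difference of dcr1-SHSS from dcr1Δ (-0.12 ± 0.05, adjusted p = 0.0752) was called as well (adjusted p = 0.0306).

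The steadiest of the 9 genes was ura3, whose 12 values lay between 14.91 and 15.00. Its pooled SD within strains was 0.0241, and only 1.42% of all features had a lower one. Its changes from wild type were -0.03, -0.06 and -0.03 in dcr1Δ, dcr1ΔC33 and dcr1-SHSS, and the 95% intervals reached no further than -0.13 and 0.04. At 99.3 to 99.5% of features with a lower value on the same array, ura3 was near the bright end of the arrays. Whether the signal is compressed at that end, which would narrow both spread and changes, was not tested. For the 5 genes of the chain the median change was -0.03, -0.10 and -0.18 in dcr1Δ, dcr1ΔC33 and dcr1-SHSS. Over all features it was 0.00, -0.03 and -0.06. Of the 5 genes, 2 were called lower in dcr1ΔC33 and 3 in dcr1-SHSS, beside 17.6% and 25.8% of all features.

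**Figure D2:**
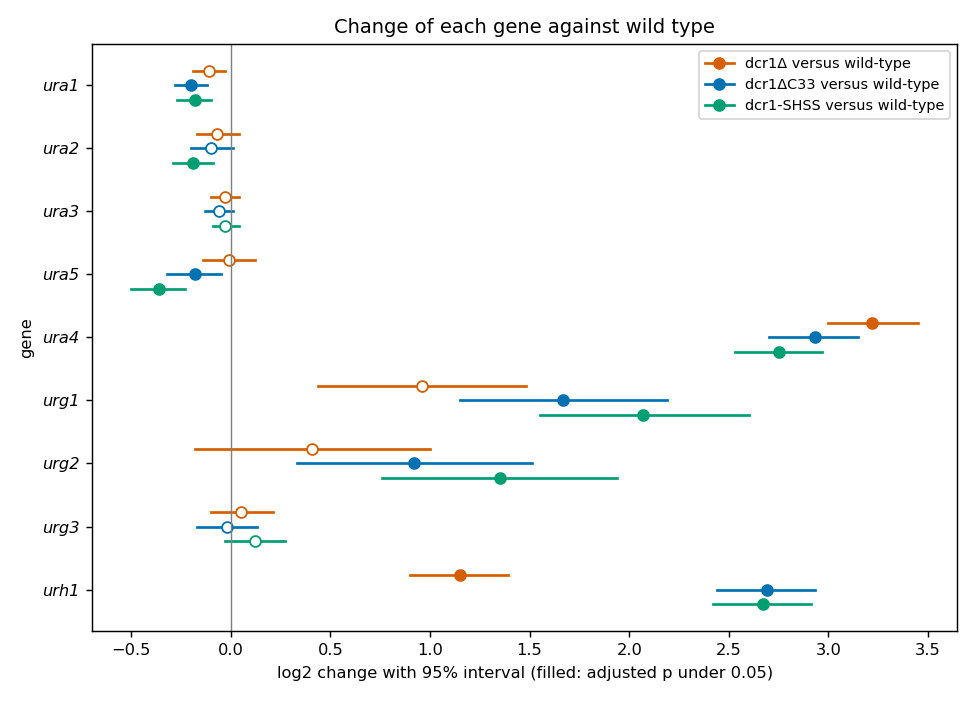
Log2 change against wild type (horizontal axis) of each of the 9 genes in dcr1Δ, dcr1ΔC33 and dcr1-SHSS, with 95% intervals of the limma fit to all 12 arrays, 3 per strain. Filled points passed an adjusted p of 0.05. The changes of ura4 lie between 2.75 and 3.22, those of urh1 at 1.15, 2.69 and 2.67, and those of ura1, ura2, ura3 and ura5 between -0.36 and -0.01.

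The uridine ribohydrolase gene urh1 rose in all 3 mutants, but in another order than ura4. Its log2 levels were 9.67, 9.29 and 9.69 in wild type, 10.71, 10.69 and 10.69 in dcr1Δ, 12.23, 12.08 and 12.40 in dcr1ΔC33, and 12.27, 12.31 and 12.06 in dcr1-SHSS. The dcr1Δ arrays formed a tight middle group, above all wild-type arrays and below all arrays of the other mutants, while dcr1ΔC33 and dcr1-SHSS overlapped. The rise was 2.22-fold in dcr1Δ (1.15 ± 0.11, adjusted p = 2.50e-04), 6.44-fold in dcr1ΔC33 (2.69 ± 0.11, adjusted p = 1.36e-07) and 6.35-fold in dcr1-SHSS (2.67 ± 0.11, adjusted p = 1.34e-07). The level in dcr1ΔC33 was 2.91-fold that in dcr1Δ (1.54 ± 0.11, adjusted p = 5.38e-05). In dcr1-SHSS it was 2.86-fold that in dcr1Δ (1.52 ± 0.11, adjusted p = 4.36e-05). Between dcr1-SHSS and dcr1ΔC33 the difference was -0.02, with a 95% interval from -0.27 to 0.23. In the deletion strain, then, urh1 reached a lower level than in the strains that still carried dcr1 RNA.

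The uracil-regulated gene urg1 lay at 11.81, 11.02 and 11.82 in wild type, at 12.59, 12.75 and 12.20 in dcr1Δ, at 13.20, 13.42 and 13.03 in dcr1ΔC33, and at 13.71, 13.90 and 13.27 in dcr1-SHSS. The strains formed an ascending series from wild type to dcr1-SHSS in which only dcr1ΔC33 and dcr1-SHSS overlapped. The spread was wide, since wild-type array 2 lay well below the other wild-type arrays and array 3 was the lowest of each mutant. The pooled SD within strains of urg1 was 0.328, and 98% of all features had a lower one. It rose 3.18-fold in dcr1ΔC33 (1.67 ± 0.24, adjusted p = 6.87e-04) and 4.21-fold in dcr1-SHSS (2.07 ± 0.24, adjusted p = 1.40e-04). In dcr1Δ the change of 0.96 ± 0.24 just missed the threshold (adjusted p = 0.0557). It passed with the arrays centred on their medians (adjusted p = 0.0475) and with the dimmest features left out (adjusted p = 0.0487). It did not pass with quantile normalization, with the replicate block (adjusted p = 0.0582) or with any 1 array left out (adjusted p from 0.0503 to 0.197). The level in dcr1-SHSS was 2.16-fold that in dcr1Δ (1.11 ± 0.24, adjusted p = 0.00896). The step from dcr1Δ to dcr1ΔC33 was 0.71 ± 0.24 (adjusted p = 0.0901, and 0.0411 without wild-type array 2). That from dcr1ΔC33 to dcr1-SHSS was 0.40, with a 95% interval from -0.12 to 0.93.

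The salvage enzyme gene urg2 had the same order of strain means. It lay at 12.55, 11.69 and 12.06 in wild type, at 12.77, 12.77 and 11.98 in dcr1Δ, at 13.00, 13.25 and 12.81 in dcr1ΔC33, and at 13.56, 13.72 and 13.09 in dcr1-SHSS. Wild type and dcr1Δ overlapped, as did dcr1ΔC33 and dcr1-SHSS, but the first pair lay wholly below the second. It rose 2.56-fold in dcr1-SHSS (1.35 ± 0.27, adjusted p = 0.00312). In dcr1ΔC33 it rose 1.90-fold (0.92 ± 0.27, adjusted p = 0.0238), a call that ended when dcr1ΔC33 array 1 or 2 or wild-type array 2 or 3 was omitted (adjusted p up to 0.0833). In dcr1Δ the change was 0.41 ± 0.27 (adjusted p = 0.465). The level in dcr1-SHSS was 1.93-fold that in dcr1Δ (0.95 ± 0.27, adjusted p = 0.0271). That call was lost without dcr1-SHSS array 1 or 2 or dcr1Δ array 3 (adjusted p up to 0.0857) and when only the 6 arrays of both strains were fitted (0.0525).

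The third gene of the cluster, urg3, lies between urg2 and urg1 in the gene table and did not move with them. Its 12 values lay between 12.58 and 12.96, and the strains overlapped. Its changes from wild type were 0.05, -0.02 and 0.12 in dcr1Δ, dcr1ΔC33 and dcr1-SHSS, with 95% intervals that together ran from -0.17 to 0.27. Over urg1, urg2, urg3 and urh1 the median change was 0.68, 1.30 and 1.71 in dcr1Δ, dcr1ΔC33 and dcr1-SHSS. The medians over all features were 0.00, -0.03 and -0.06.

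Between the mutants, most calls among the 9 genes were between dcr1Δ and dcr1-SHSS, as were most calls over all features. In dcr1-SHSS against dcr1Δ, 3 genes were higher (urh1, urg1 and urg2) and 2 lower (ura4 and ura5), where 26.6% of all features were called. Omitting 1 array took that share to between 13.7% (without dcr1Δ array 1) and 27.5%. In dcr1ΔC33 against dcr1Δ, urh1 was the 1 gene called, beside 7.9% of all features, a count near the background. With the replicate block, 3 were called, urh1 higher and ura4 and ura5 lower, as were 847 features in place of 433. The share of all features ran from 2.19% (without dcr1ΔC33 array 3) to 8.79% with 1 array omitted. Without wild-type array 2, which sets no mean of that comparison but enters the pooled spread, ura4 and urg1 were called too, and without dcr1Δ array 3 ura5 was. In dcr1-SHSS against dcr1ΔC33, 0 of the 9 genes were called by limma, where 0.146% of all features were. At an unadjusted p under 0.05, 0 genes were higher and 1, ura5, was lower there (-0.18 ± 0.06, adjusted p = 0.2). These data therefore set bounds on that last pair rather than show it equal: the 95% intervals reached from -0.40 for ura4 to 1.02 for urg2.

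**Figure D3:**
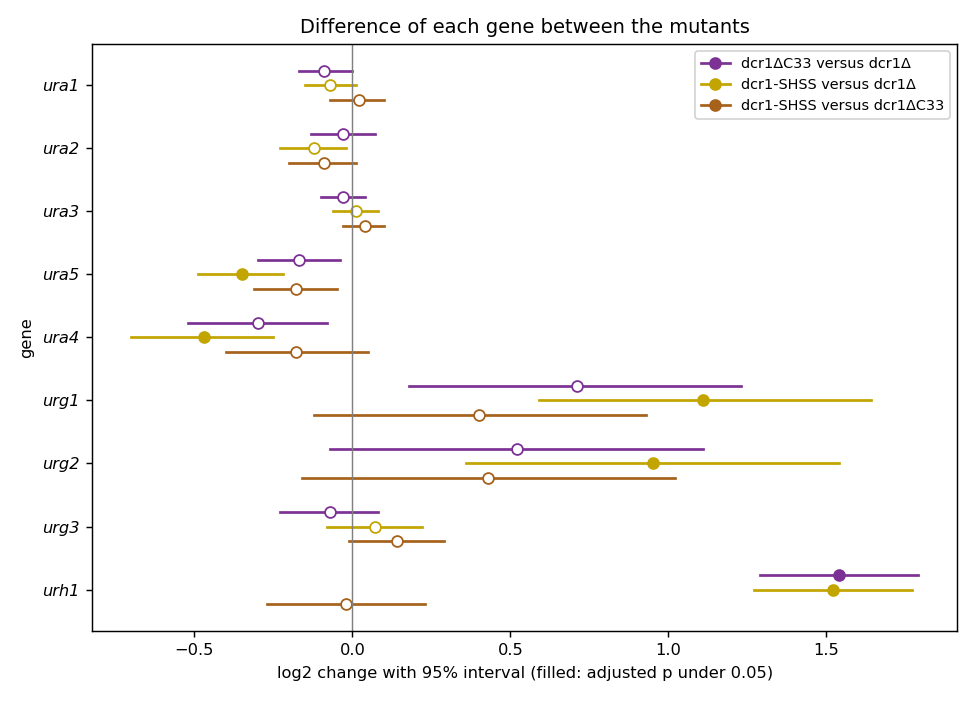
Log2 difference between the mutants (horizontal axis) for each of the 9 genes, with 95% intervals of the limma fit to all 12 arrays, 3 per strain. Filled points passed an adjusted p of 0.05. The differences of urh1 from dcr1Δ stand at 1.54 and 1.52, those of ura4 at -0.30 and -0.47, and no point of dcr1-SHSS against dcr1ΔC33 is filled.

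The genes beside these loci were read for changes along the chromosome. On either side of ura4 lie mug135, a gene named for its rise in meiosis, and pmp20, which encodes a peroxiredoxin. The first lay at 8.12, 8.12 and 8.31 in wild type and at 8.68, 8.69 and 8.57 in dcr1ΔC33, where it rose by 0.46 ± 0.09 (adjusted p = 0.00412). Its changes of 0.23 in dcr1Δ and 0.25 in dcr1-SHSS did not pass (adjusted p = 0.214 and 0.0511). The second changed by 0.02, 0.07 and 0.14, with no call. Beyond mug135, SPCC330.03c rose by 0.54 and 0.63 and rhp7 by 0.44 and 0.41 in dcr1ΔC33 and dcr1-SHSS (adjusted p = 2.93e-04, 9.04e-05, 5.74e-04 and 5.91e-04). Beyond pmp20 the calls were lower, SPCC330.07c by -0.20 in dcr1ΔC33 (adjusted p = 0.0416) and alg11 by -0.15 in dcr1-SHSS (adjusted p = 0.028). These flanking genes thus moved by far less than the 2.75 to 3.22 of ura4 itself.

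Around urh1, thi7 changed by -0.01, -0.05 and -0.17 in dcr1Δ, dcr1ΔC33 and dcr1-SHSS, with no call. The maltase gene mal1, whose annotated span overlaps that of urh1, changed by 0.08, 0.17 and 0.19, again with no call, although both strands were read together. Farther out in the plotted stretch, 3 features rose in dcr1ΔC33 and dcr1-SHSS. The ferric reductase gene frp1 rose by 1.17 and 1.14 (SE 0.28, adjusted p = 0.0102 and 0.00934), SPNCRNA.297 by 0.62 and 0.46 (SE 0.14, adjusted p = 0.0082 and 0.0239) and SPBC1683.04 by 0.21 and 0.13 (SE 0.04, adjusted p = 0.00576 and 0.0363). Their changes in dcr1Δ were 0.32, 0.23 and 0.01, with no call. Long non-coding RNAs are annotated over ura1, ura3, ura5, urg1 and urg3, and these were not measured as separate features, so their signal and that of the gene cannot be told apart.

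At the urg cluster the gene before urg2, tna1, changed by 0.04 and -0.06 in dcr1Δ and dcr1ΔC33 and fell by 0.38 ± 0.06 in dcr1-SHSS (adjusted p = 9.24e-04). The gene after urg1, toe1, changed by 0.05, 0.04 and -0.08, with no call. Next to toe1 stands uck2, which was on the list of other pyrimidine genes. It lay at 10.99, 10.98 and 11.25 in wild type, at 11.49, 11.64 and 11.36 in dcr1Δ, at 11.56, 11.85 and 11.55 in dcr1ΔC33, and at 11.90, 12.17 and 11.55 in dcr1-SHSS. Every mutant array lay above every wild-type array. It rose by 0.58 ± 0.15 in dcr1ΔC33 (adjusted p = 0.0147) and by 0.80 ± 0.15 in dcr1-SHSS (adjusted p = 0.0024), while the change in dcr1Δ was 0.43 ± 0.15 (adjusted p = 0.172). Without dcr1ΔC33 array 2 the call in that strain was lost (adjusted p = 0.0548). Beyond it the uracil permease gene fur4 fell by 0.12 in dcr1ΔC33 and in dcr1-SHSS (adjusted p = 0.0166 and 0.012), the first call lost without dcr1ΔC33 array 3 (0.0688). In dcr1ΔC33 and dcr1-SHSS, urg2, urg1 and uck2 were thus called higher, while urg3 and toe1 between them were not called. Outside these, fur4 was called lower in both strains and tna1 in dcr1-SHSS. Beyond tna1, itt1 was called higher in both strains (0.22 and 0.17, adjusted p = 0.00795 and 0.0216). Its call in dcr1-SHSS was lost without array 2 or 3 of that strain or wild-type array 1 (adjusted p up to 0.071). Farther out, med6 changed by -0.27 in each, called in dcr1-SHSS alone (adjusted p = 0.0501 and 0.0393). In dcr1Δ none of these genes was called. Of the 28 measured features counted as the nearest pair on each side of every gene, 0 rose and 0 fell in dcr1Δ by limma, and at an unadjusted p under 0.05 these numbers were 4 and 2. The share of all features called in dcr1Δ was 3.14%. In dcr1ΔC33 6 rose and 4 fell, beside 14.7% of all features higher and 17.6% lower. In dcr1-SHSS 6 rose and 8 fell, beside 15% higher and 25.8% lower. These counts are near the background.

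**Figure D4:**
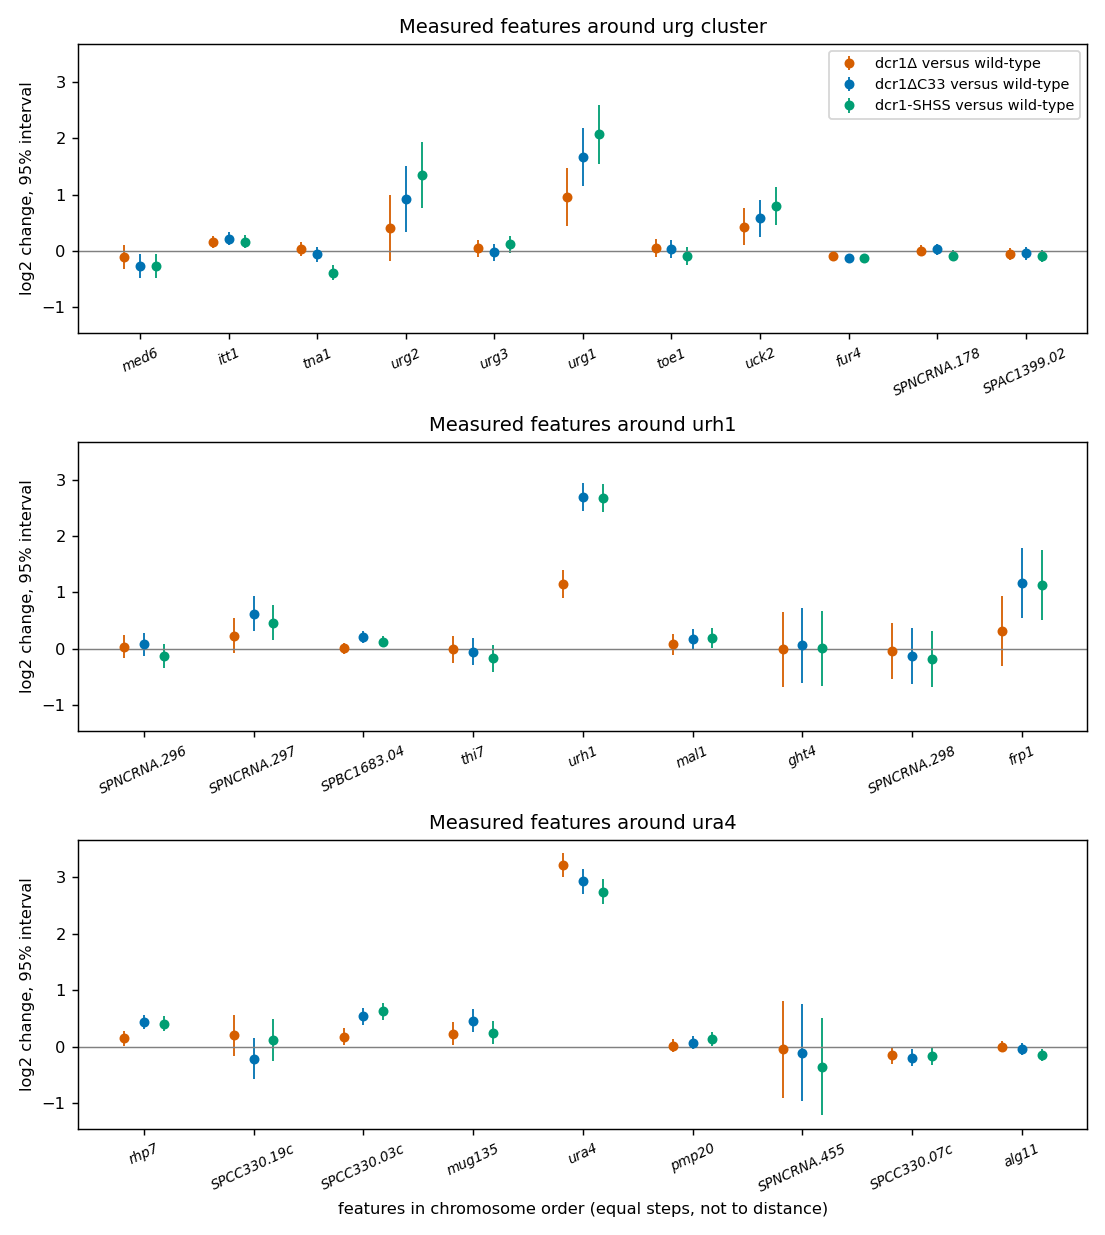
Log2 change against wild type (vertical axis, with 95% intervals) of the measured features in chromosome order around the urg cluster, urh1 and ura4, in equal steps. Points are dcr1Δ, dcr1ΔC33 and dcr1-SHSS, 3 arrays per strain. At the cluster urg2, urg1 and uck2 stand above their neighbours, and urh1 and ura4 stand above the features next to them. Farther from urh1, frp1 reaches 1.17 in dcr1ΔC33.

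Other genes were taken from a list of 18 drawn up for pyrimidine metabolism and transport, of which 17 were measured. The 17 included thi7, also given above as the neighbour of urh1. In dcr1Δ 1 rose and 0 fell (unadjusted p under 0.05: 7 and 2), beside 3.14% of all features called. In dcr1ΔC33 3 rose and 2 fell, beside 14.7% of all features higher and 17.6% lower, a count near the background. In dcr1-SHSS 3 rose and 6 fell, beside 15% higher and 25.8% lower. Their median changes of 0.02, -0.05 and -0.09 lay beside 0.00, -0.03 and -0.06 over all features. SPCC965.14c, which has no symbol in the gene table, was the member called in all 3 mutants. It lay at 10.06, 9.67 and 10.11 in wild type, at 10.49, 10.48 and 10.47 in dcr1Δ, at 10.53, 10.50 and 10.66 in dcr1ΔC33, and at 10.39, 10.38 and 10.46 in dcr1-SHSS. The mutant arrays lay together above wild type, without the order seen for ura4 or urh1. Its rises were 0.53, 0.62 and 0.47 (SE 0.10 each, adjusted p = 0.0145, 0.00116 and 0.00408). The call in dcr1Δ was lost without dcr1Δ array 2 or 3 (adjusted p up to 0.0589).

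The nucleoside diphosphate kinase gene ndk1, whose product passes phosphate between nucleotides, rose by 0.37 ± 0.06 in dcr1ΔC33 and by 0.42 ± 0.06 in dcr1-SHSS (adjusted p = 9.06e-04 and 3.18e-04). Its change in dcr1Δ was 0.14 (adjusted p = 0.227), and both other mutants were above dcr1Δ (0.23 and 0.28, adjusted p = 0.0303 and 0.0061). The difference of dcr1ΔC33 from dcr1Δ was lost without any 1 of the arrays of these strains (adjusted p up to 0.0932). The deoxyuridine triphosphatase gene dut1 lay at 12.19, 12.26 and 12.36 in wild type, at 12.54, 12.54 and 12.32 in dcr1Δ, at 12.11, 12.21 and 12.06 in dcr1ΔC33, and between 11.90 and 12.06 in dcr1-SHSS. It fell by 0.27 ± 0.08 against wild type in dcr1-SHSS (adjusted p = 0.0166), and it was lower than in dcr1Δ in both dcr1ΔC33 (-0.34 ± 0.08, adjusted p = 0.0225) and dcr1-SHSS (-0.47 ± 0.08, adjusted p = 0.00277). The fall against wild type was lost without dcr1-SHSS array 2 or wild-type array 3 (adjusted p up to 0.0616), and the difference of dcr1ΔC33 without array 1 or 2 of dcr1Δ or array 1 or 3 of dcr1ΔC33 (up to 0.0922). The deoxycytidylate deaminase gene dcd1 fell by 0.25 ± 0.06 in dcr1-SHSS (adjusted p = 0.00714). SPAC1B3.01c fell by 0.26 ± 0.08 in dcr1ΔC33 (adjusted p = 0.0328) and by 0.22 ± 0.08 in dcr1-SHSS (adjusted p = 0.048). The first of these calls was lost without dcr1ΔC33 array 1 or 3 or wild-type array 2 or 3 (adjusted p up to 0.119). The second was lost without dcr1-SHSS array 1 or 3, dcr1Δ array 2, dcr1ΔC33 array 1 or any 1 of the wild-type arrays (adjusted p up to 0.134).

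**Figure D5:**
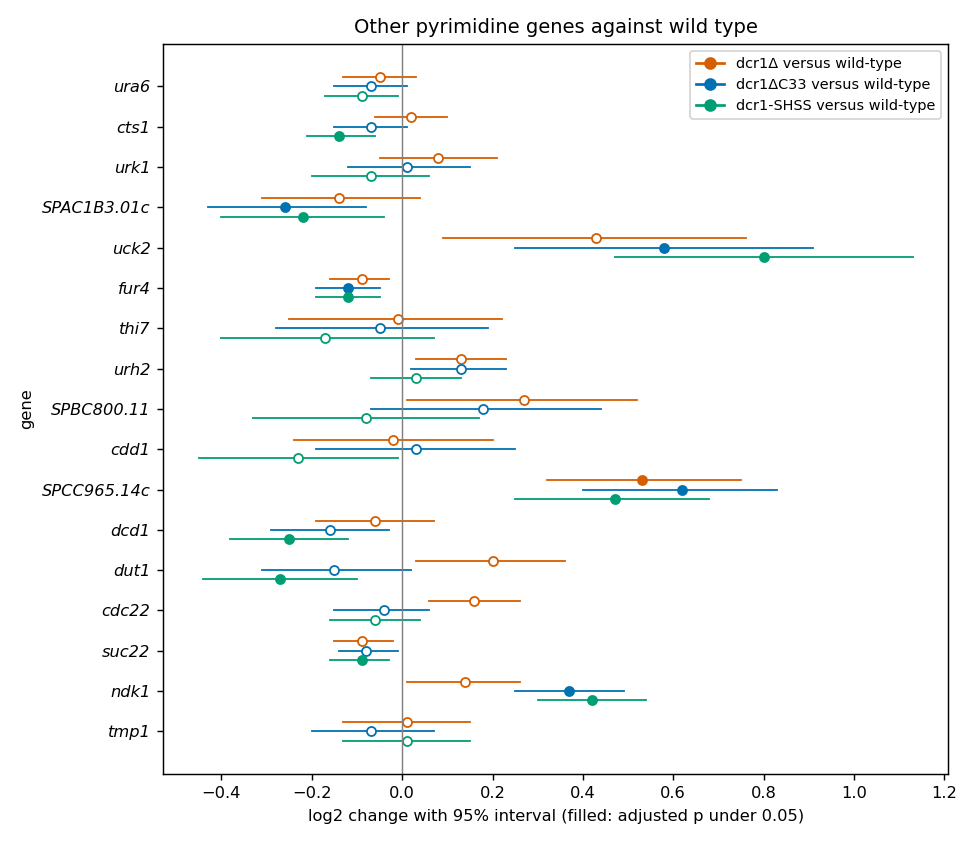
Log2 change against wild type (horizontal axis, with 95% intervals) of the 17 other measured genes listed for pyrimidine metabolism and transport, in dcr1Δ, dcr1ΔC33 and dcr1-SHSS, 3 arrays per strain. Filled points passed an adjusted p of 0.05. SPCC965.14c is filled in all 3 mutants, uck2 reaches 0.80 in dcr1-SHSS, and the lowest filled point is dut1 at -0.27.

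Since ura4 is a marker gene, 10 other genes listed as nutritional markers were read in the same way, all of them measured. The entry can1 was read as any1, of which it is a synonym in the gene table. That gene was among those that fell in dcr1-SHSS (-0.15, adjusted p = 0.00914), and whether it belongs with nutritional markers was not checked. In dcr1Δ 0 rose and 0 fell (limma; unadjusted p under 0.05: 0 and 1), in dcr1ΔC33 0 rose and 2 fell, beside 17.6% of all features lower, and in dcr1-SHSS 0 rose and 5 fell, beside 25.8% lower. The count in dcr1ΔC33 is near the background, and it was 4 with the replicate block. The largest was his5, of histidine synthesis, which fell by 0.45 ± 0.07 in dcr1-SHSS (adjusted p = 0.00121). The next were arg6, given above, lys1, of lysine synthesis, which fell by 0.16 in dcr1ΔC33 and by 0.17 in dcr1-SHSS (adjusted p = 0.0283 and 0.0193), and leu1, of leucine synthesis, which fell by 0.15 in dcr1-SHSS (adjusted p = 0.00934). The calls of lys1 were lost in dcr1ΔC33 without any 1 of its arrays or wild-type array 2 or 3 (adjusted p up to 0.0951), and in dcr1-SHSS without its array 1 or wild-type array 3 (up to 0.0694). All changes of this list lay between -0.45 and 0.06, whereas ura4 rose by at least 2.75 in each mutant. An RNA level does not give the allele of a marker gene, so whether the strains differ in these alleles was not tested.

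The features with the pattern most like that of ura4, urh1 and urg1 were found by the root mean square difference of log2 levels over the 9 mutant arrays, each feature taken relative to its own wild-type mean, among 5482 features. For ura4 the nearest were the non-coding RNAs SPNCRNA.232 (0.421), SPNCRNA.231 (0.642) and SPNCRNA.373 (0.781). Against wild type SPNCRNA.232 changed by 3.27, 3.24 and 3.24 in dcr1Δ, dcr1ΔC33 and dcr1-SHSS, without the downward step of ura4 between the mutants. For urh1 they were SPCC70.04c (0.24), SPBC1773.03c (0.28) and opt3 (0.284), each lower in dcr1Δ than in the other mutants, as urh1 was. For urg1 they were SPNCRNA.65 (0.156), SPCC737.04 (0.24) and SPAC22A12.17c (0.271). The likeness of SPNCRNA.65 to urg1 was closer than that of urg2, which was not among the nearest 3.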

How the data were processed

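The authors deposited 1 log2 level per annotated feature and array; per the submitters' processing notes the software was R 2.10.0 with affy. The sources used here do not give the build, the annotation or the steps of background correction, normalization and probe summary; scale and centring are known only as far as the values show, and changes of dim features can be compressed. The levels were used as deposited in limma 3.58.1 (R 4.3.3): 1 model of 4 groups over 12 arrays, with moderated variances (2.44 prior and 8 residual degrees of freedom) and 2-sided tests. The 3 arrays of each strain limit the precision; the closest arrays differed by a median of 0.057 over features, so none was counted as a duplicate. A gene table of assembly ASM294v3, which held 5357 of the 5483 IDs, gave names and gene order only. Promoter and protein sequences were not used here, and no motif was searched.

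The members, gene lists and alternatives were chosen with earlier results of these data known. Text genes were the 9 members; up to 6 other pyrimidine and 4 marker genes past the threshold against wild type, by size of change; the nearest features beside ura4, urh1 and the urg cluster; and 3 features most like ura4, urh1 and urg1. Others named for context (fur4, frp1, SPNCRNA.297, SPBC1683.04, SPCC330.03c, rhp7, res1, itt1, med6, kri1, ime4, any1, SPCC330.07c, alg11) were added after their values were seen. Same-numbered arrays' deviations from their strain means correlated above 0.1 in every pair for dcr1Δ and wild type (0.151, 0.354, 0.252) and for dcr1ΔC33 and wild type (0.177, 0.388, 0.223). The same held for dcr1ΔC33 and dcr1Δ (0.184, 0.3, 0.131) and for dcr1-SHSS and dcr1Δ (0.178, 0.437, 0.266). The first pair fell short for dcr1-SHSS with wild type (0.0931) and with dcr1ΔC33 (0.0206). What a shared array number means is not given, so the main fit was unblocked and the replicate block was an alternative. As alternatives, the fit was repeated with quantile normalization, median centring, the dimmest 20% of features removed, the compared strains alone, trended robust moderation, the replicate block, an adjusted p of 0.01 and each array left out.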

Additional observations from a re-analysis of the deposited data

How the results depend on the processing

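Of 378 changes of single genes under other settings, 363 kept their direction and their side of the threshold, 4 lost and 6 gained a call and 5 turned sign. The count of the 9 genes called in dcr1ΔC33 against dcr1Δ was 1, and became 2 with quantile normalization, 2 with these strains alone and 3 with the replicate block; leaving out 1 array gave 1 to 3. The replicate block changed no other call of these genes. All results whose sign turned were uncalled: with quantile normalization ura1 in dcr1-SHSS against dcr1ΔC33 (-0.0191), and ura3 in dcr1Δ against wild type (0.0037), in dcr1-SHSS against dcr1Δ (-0.0152) and against dcr1ΔC33 (-0.0013); with median centring urh1 in dcr1-SHSS against dcr1ΔC33 (0.0033). Leaving out 1 array at a time also took the sign across 0 for ura1 (-0.0106 to 0.0317) and urh1 (-0.0976 to 0.058) in dcr1-SHSS against dcr1ΔC33, ura2 in dcr1ΔC33 against dcr1Δ (-0.086 to 0.0022), ura3 (-0.0085 to 0.0162) and urg3 (-0.0086 to 0.129) in dcr1-SHSS against dcr1Δ, ura5 in dcr1Δ against wild type (-0.0419 to 0.048) and urg3 in dcr1ΔC33 against wild type (-0.044 to 0.0258). Over all features, 172 were called in dcr1Δ against wild type, 295 with the block, 73 with these strains alone and 68 at an adjusted p of 0.01; the last setting also gave 852 in place of 1771 in dcr1ΔC33 and 1217 in place of 2234 in dcr1-SHSS against wild type. In dcr1ΔC33 against dcr1Δ 433 became 847 with the block, 272 with these strains alone and 90 at 0.01; in dcr1-SHSS against dcr1Δ 1456 became 908 and 499 in the last 2 settings; and in dcr1-SHSS against dcr1ΔC33 8 became 0 to 8. With 1 array left out these counts over all features ran from 82 to 168 in dcr1Δ, 1178 to 1777 in dcr1ΔC33 and 1729 to 2215 in dcr1-SHSS against wild type, from 120 to 482 in dcr1ΔC33 and 750 to 1508 in dcr1-SHSS against dcr1Δ, and from 1 to 11 in dcr1-SHSS against dcr1ΔC33. The cause of these differences was not tested, beyond the fewer arrays in some fits. Dim signal limits ura4 in wild type, and the number of arrays limits urg1 and urg2, whose spread within strains was wide.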

Other observations

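Between arrays of the same strain, urg1 and urg2 mostly varied together. Taking each of the 12 arrays as above or below its own strain's mean, urg2 stood on the same side as urg1 on 11 arrays, and 1% of all features did so on as many or more. For uck2 the number was 10 (3.94% of features), for urg3, urh1 and ura5 it was 9 (13.1%), and for ura4 it was 6, the median over all features. The numbers were 5 for ura2, 4 for ura3 and 2 for ura1, which thus stood on the opposite side on the other 10 arrays. Array 3 was the lowest of dcr1Δ, dcr1ΔC33 and dcr1-SHSS for urg1, urg2, urg3, ura5 and uck2. Wild-type array 2 was the lowest of its strain for ura4, ura5, urh1, urg1, urg2, urg3, uck2 and SPCC965.14c, but not for ura1, ura2 or ura3. These are descriptions of 12 arrays with no test, and the sources used here do not give what arrays of 1 number share.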
